A study of Homo sapiens with 8 samples.

Results

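To ask which poly(A) sites change use when the cytoplasmic poly(A)-binding protein PABPC4 is depleted, the comparison of PABPC4 knockdown (KD) with control cells was taken from 3′ end sequencing of MDA-MB-231, a human breast cancer line. All 5953 site pairs of 3084 genes in the deposited table of this comparison were used, out of 7615 pairs of 3656 genes listed in any of the 3 tables of the series. The control cells (2 samples) carried 2 non-targeting guide RNAs and the PABPC4 KD cells (2 samples) a non-targeting guide with a guide against PABPC4, of 8 samples in 4 groups. Every group expressed dCas9-KRAB, a Cas9 that cannot cut DNA joined to the KRAB repressor (CRISPR interference, CRISPRi), which lowers transcription from the promoter that the guide matches. HNRNPC KD cells carried a guide against HNRNPC with a non-targeting guide, and double KD cells carried both targeting guides. The table's name mixes abbreviations of the 2 targets, and PABPC4 KD was the comparison left once the other tables were placed, so each value below rests on that elimination. PABPC4 and HNRNPC themselves had 0 pairs in any table, so depletion could not be checked here. In these bulk RNA samples a change within each cell and a change in the mixture of cells cannot be told apart.

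A poly(A) site is where the nascent RNA is cleaved and its tail is added. Many human genes carry several, and use of an upstream (proximal) site shortens the 3′ UTR, or truncates the message if the site lies in an intron, while use of a downstream (distal) site gives the longer form. Cleavage is usually directed by a hexamer, AATAAA or the weaker ATTAAA in DNA letters, a short way upstream of the end. PABPC4 belongs to the family of PABPC1, proteins that coat the tail in the cytoplasm, bind the translation scaffold EIF4G1 and meet the deadenylases that shorten the tail. A site can gain or lose reads in this assay through its choice in the nucleus or through the stability of the RNA that ends there, and the readout does not separate these.

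The measure throughout is logAPAR, the natural log of the ratio of proximal to distal reads in KD cells divided by the same ratio in control cells. A value above 0 is a shift toward the proximal site and a value below 0 a shift toward the distal site. Most genes had 2 sites (2185 genes), 650 had 3 and 249 had 4 or more, with at most 7. The table holds no values per library, so no spread between replicates can be given, and each p-value and interval covers counting error of the summed libraries only. Every p-value of PABPC4 KD against control is from a Wald test on the reads of a pair of sites in a pair of groups. This is a test of a binomial share and is called the binomial Wald test here. The name is kept for the contrasts near the end, whose Wald tests combine values and errors of several such comparisons.

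The ends of 3 genes are shown because they carry results below. NQO1 held the smallest p-value among distal shifts, and BTN3A2 and ISY1 are 2 of the 7 genes that also passed in libraries outside this comparison. Further ends are not reported here. Each run is the last 30 bases of the annotated transcript on hg38 (Gencode release 44), 5′ to 3′ on the strand of the gene, with AATAAA or ATTAAA in capitals.
NQO1 proximal, chr16:69710782-69710811, minus strand: attcttatgattactatcatggcatataac
NQO1 distal, chr16:69709401-69709430, minus strand: ataAATAAAattcatttctacagacccaca
BTN3A2 proximal, chr6:26373577-26373606, plus strand: ttttctctctagaaaaaaaaaaaaaaaaaa
BTN3A2 distal, chr6:26378283-26378312, plus strand: gttgttcAATAAAtttgttaataatgctga
ISY1 proximal, chr3:129129791-129129820, minus strand: tcttattttgacttgcactgccattttgag
ISY1 distal, chr3:129129374-129129403, minus strand: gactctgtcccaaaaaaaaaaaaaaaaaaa

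The distal ends of NQO1 and BTN3A2 carry a hexamer and their proximal ends carry none in the 40 bases searched. The runs printed for the proximal end of BTN3A2 and the distal end of ISY1 finish in a stretch of A. Oligo(dT), which primed these libraries, can anneal to such stretches, and its part in the values of these sites was not tested.

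PABPC4 KD shifted few genes past the threshold, and by net direction the genes stayed centred on no shift. With the study's threshold of p 0.01, 45 pairs passed (0.756%), each in a different gene, or 1.46% of genes counted by their pair of smallest p. If no site had changed and p-values were exact, 59.5 of the 5953 pairs would be under 0.01, more than the 45 seen. The count over all pairs by itself therefore does not show that sites changed. Most pairs were measured with a large error, and those with a standard error under 0.5 passed more often, 26 of 1354 (1.92%). That share is above the 0.01 that exact p-values would give without change, and what lies behind it was not tested. The shift was toward the proximal site in 25 genes (0.811%) and toward the distal site in 20 (0.649%). This direction is that of the pair of smallest p, and other pairs of a gene can differ. At HSP90AA1, LNPK, UBE2L3, KDM5A and CFLAR another pair shifted the opposite way at p under 0.05 (binomial Wald test). At others, such as ATRX, ELL2 and POLH, a further pair under 0.05 went the same way. At p 0.05, 211 genes passed (6.84%), 111 toward proximal and 100 toward distal. After Benjamini-Hochberg adjustment across all pairs, 1 gene, TIMM50, had an adjusted p under 0.05, and the value for SRRM2 was just above it (adjusted p = 0.0643, binomial Wald test). Over all genes, each by its outermost pair of sites (most proximal with most distal), the median logAPAR was 0.01 (95% order-statistic interval over genes −0.02 to 0.04), with quartiles at −0.46 and 0.51, and 1562 genes lay above 0 against 1522 below.

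Depth set what could be seen. The median Wald standard error of a pair was 0.806, at which a change of 7.96-fold is needed to reach p 0.01, and 345 pairs (5.8%) were measured well enough for a 2-fold change to pass. For most genes a change of moderate size was therefore not detectable. At 37 genes the 95% interval for the outermost pair lay wholly within a 1.5-fold change either way. Among the 5 genes with the smallest errors, SLC25A37, a mitochondrial iron importer, had logAPAR −0.11 (95% interval −0.24 to 0.01), ZFP36L1, an RNA-binding protein that brings deadenylases to AU-rich messages, −0.12 (−0.25 to 0.01), and the histone gene H3-3A 0.14 (0.02 to 0.25). RPL13A (0.14) and PHLDA1 (0.23) complete the 5. Both passed p 0.01 toward the proximal site and are also among the 37 genes within 1.5-fold.

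**Figure D1:**
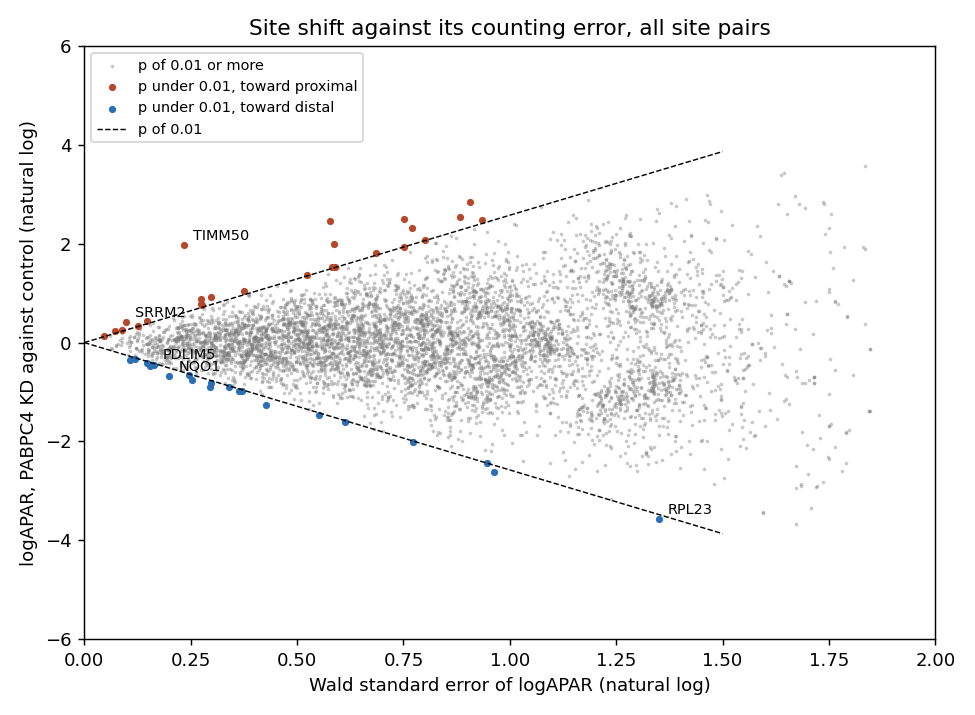
Site shift (logAPAR, natural log, vertical axis) against its Wald standard error (horizontal axis) for 5950 site pairs of PABPC4 KD against control. A further 3 pairs are not drawn, 2 of them because no standard error could be recovered. Red and blue points passed p 0.01 toward the proximal and the distal site and lie just beyond the dashed lines of p 0.01, except TIMM50, which stands apart.

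Of the genes shifted toward the proximal site, TIMM50 moved the most for its error. It encodes a subunit of the TIM23 complex, which moves proteins across the inner mitochondrial membrane. Its logAPAR was 1.97 (95% interval 1.51 to 2.43; binomial Wald test, p = 3.85e-17, adjusted p = 2.29e-13), a 7.19-fold rise of the proximal to distal ratio. The gene lies on chromosome 19 (39480412 to 39493785, hg38), and both ends belong to transcripts that the annotation marks for nonsense-mediated decay. The site with fewest reads in either group held between 18.2 and 72.9 normalised reads, the range that its standard error allows. SRRM2, a large scaffold protein of nuclear speckles and the spliceosome, had a smaller and better measured value of 0.41 (0.22 to 0.60).

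ELL2, a subunit of the super elongation complex of RNA polymerase II, had logAPAR 2.50 (1.03 to 3.97): its proximal site rose from 2.69 to 14.3 normalised reads and its distal site fell from 26.6 to 11.6. These sites held 2.60% and 25.7% of the gene's reads in control and 13.2% and 10.7% in KD. Most reads of ELL2 thus lay at its remaining listed site. TOB1, an antiproliferative protein that links poly(A)-binding protein to the CCR4-NOT deadenylase, had logAPAR 2.31 (0.80 to 3.82), with at most 6.76 reads at its weakest site. WDR3, a factor of small ribosomal subunit assembly, had logAPAR 2.85 (1.07 to 4.63), from 9.63 proximal and 7.66 distal reads in control to 38.7 and 1.78 in PABPC4 KD. RPL13A, a protein of the large ribosomal subunit, had the smallest error of any gene and a shift of 0.14 (0.05 to 0.22), or 1.14-fold. Ribosomal protein genes have many processed pseudogenes, and reads assigned between such copies are uncertain. ISY1, a spliceosome component, EIF4G1, the translation scaffold that binds poly(A)-binding protein, G3BP2, a stress granule protein, ZC3H7A, a zinc finger protein, and NUDT16, which removes caps from RNA, also passed p 0.01 toward the proximal site.

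Of the other proximal shifts, HSP90AA1, the inducible cytosolic HSP90 chaperone, went from 19.2 to 45.8 reads at its proximal site while the distal site, with nearly all reads of the gene, held 2380 and 2353 (logAPAR 0.88, 0.35 to 1.42). The proximal site thus rose from 0.785% to 1.87% of the gene's reads. PHLDA1, a pleckstrin-homology-like protein, is the deepest of the genes whose reads were solved: its proximal site had 7888 reads in control and 8907 in PABPC4 KD and its distal site 413 and 369 (logAPAR 0.23, 0.09 to 0.38). ATRX, a chromatin remodeller, had logAPAR 0.92 (0.33 to 1.505), with 72.7 and 101 proximal and 43.1 and 23.7 distal reads in control and KD.

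WIPF1, a regulator of actin assembly, had logAPAR 1.99 (0.84 to 3.14), and TSPAN3, a tetraspanin membrane protein, 0.26 (0.08 to 0.43). The remaining proximal genes were PPIAL4G, a member of the cyclophilin A family whose copies are nearly identical, TDP1, a DNA repair phosphodiesterase, the bicarbonate transporter SLC4A7, the membrane adaptor PAG1, the sphingosine phosphate lyase SGPL1, the centrosomal protein CEP350, ZPR1, a zinc finger protein, and LNPK, a protein of endoplasmic reticulum junctions. At SLC4A7 the proximal reads were 160 and 157 and the distal reads 49.7 and 22.9, so the loss at the distal site carried the shift.

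Toward the distal site, NQO1, a quinone reductase of the oxidative stress response, had logAPAR −0.68 (−1.07 to −0.28). Its proximal site fell from 110 to 63.4 reads and its distal site had 123 and 140, so the distal share of the gene rose from 51.1% to 68.2%. SETD5, a SET-domain chromatin protein, had logAPAR −0.36 (−0.57 to −0.15), and SNU13, a protein shared by the U4 snRNP and box C/D snoRNPs, −0.48 (−0.78 to −0.18). The standard errors of these 3 genes were 0.2004, 0.107 and 0.155, so modest changes could pass.

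UBE2L3, a ubiquitin-conjugating enzyme, had logAPAR −0.89 (−1.47 to −0.31), with proximal reads of 54.8 and 37.1 and distal reads of 38.4 and 63.4 in control and KD. BTN3A2, a butyrophilin of the cell surface, had −0.77 (−1.26 to −0.27), SLC35E1, a member of the nucleotide sugar transporter family, −1.26 (−2.10 to −0.43), and KIAA0319L, a transmembrane protein used as a receptor by adeno-associated virus, −0.34 (−0.57 to −0.10). PDLIM5, a PDZ and LIM domain protein of the actin cytoskeleton that the study singles out, had −0.45 (−0.77 to −0.13), from 1444 proximal and 68.3 distal reads to 1249 and 92.6, so the distal site made up 4.46% and then 6.84% of its reads.

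CFLAR, an inhibitor of caspase-8, had the next smallest p-value, with logAPAR −2.63 (−4.51 to −0.74) on 9.31 proximal and 5.39 distal reads in control and 1.78 and 14.2 in KD. These sites held 10.2% and 5.90% of the gene's reads in control and 1.79% and 14.3% in KD. PLEKHB2, a pleckstrin homology protein of recycling endosomes, had −0.40 (−0.69 to −0.11), and PPIF, the mitochondrial cyclophilin, −0.97 (−1.69 to −0.26). MTDH, an adaptor protein often gained in breast tumours, had −0.81 (−1.40 to −0.22): its proximal site held 98.0 and 98.4 reads and its distal site went from 20.9 to 47.2.

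Among the other 8 distal genes were KDM5A, a histone demethylase, DERL1 and UBXN6, which act in protein quality control, RPL23 of the large ribosomal subunit, FBLIM1, an adhesion protein, WASHC4 of the endosomal WASH complex, and POLH, a translesion DNA polymerase. RPL23 had the widest interval of the group (logAPAR −3.58, −6.22 to −0.93), with at most 2.2 reads at its weakest site. The members just inside the threshold were ZPR1, LNPK and KDM5A (p of 0.00971, 0.00983 and 0.00984), and those just outside were SOS1, HNRNPF and SMC4 (0.0105, 0.0106 and 0.0107).

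**Figure D2:**
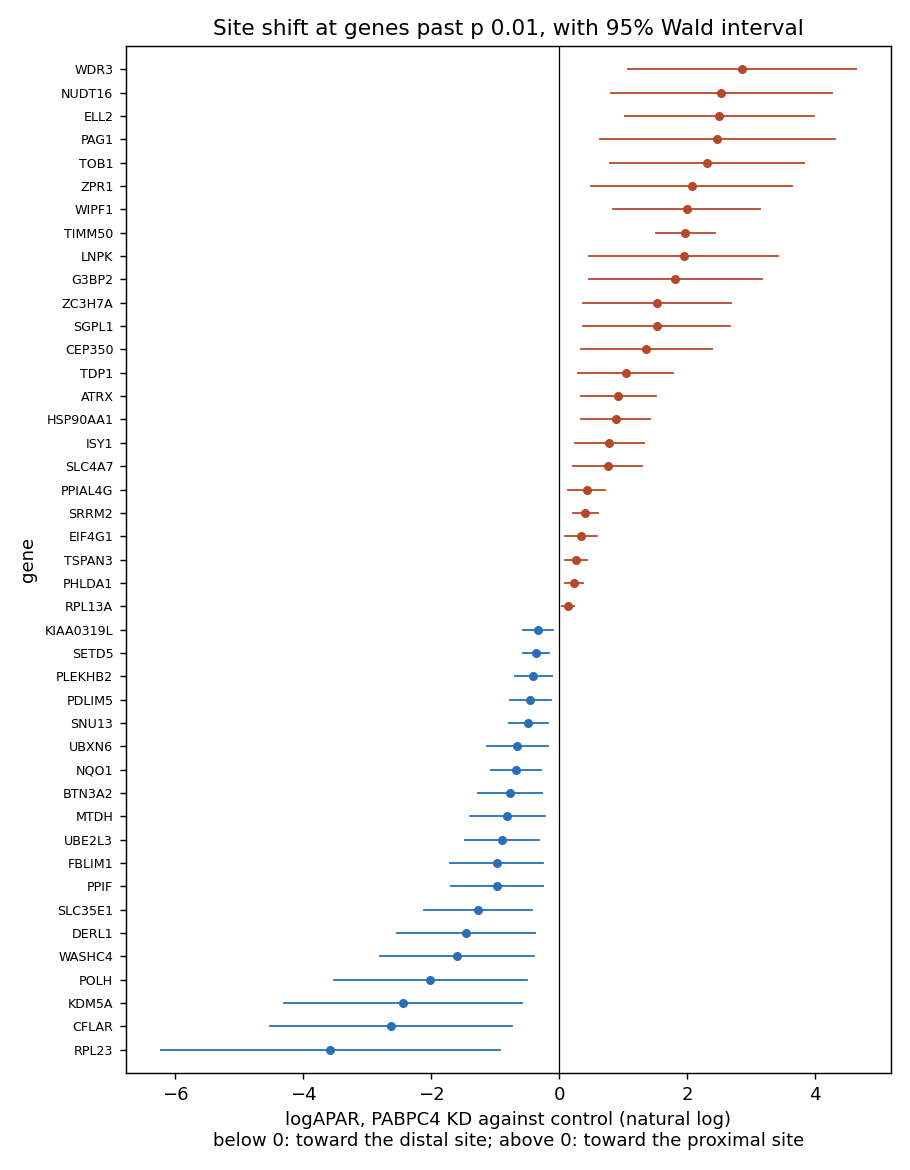
Genes past p 0.01 in PABPC4 KD against control (43 of the 45), ordered by logAPAR (natural log), with points for the deposited value and bars for the 95% Wald interval, which covers counting error only. Absolute values run from 0.14 at RPL13A to 3.58 at RPL23, and the larger values have the wider bars.

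Among the genes that passed, larger shifts tended to rest on fewer reads. The median change was 4.58-fold among proximal genes and 2.44-fold among distal genes, and a low-count pair must change more to pass, so these medians describe the threshold as well as the cells. By solved reads or, without them, by the range that the error allows, the weakest of the 4 read values was at least 10 normalised reads at 22 of the 45 genes and below 10 at 14. Reads per site and group could be solved at 18 of the 45 genes. Proximal and distal site moved in opposite directions at 16 of these, and the distal site changed by more than the proximal site at 10 and by less at 8. The genes were picked by the difference between the changes at their sites, which favours opposite moves. The same share over all solved genes was not computed, so the 16 are not evidence of site switching.

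**Figure D3:**
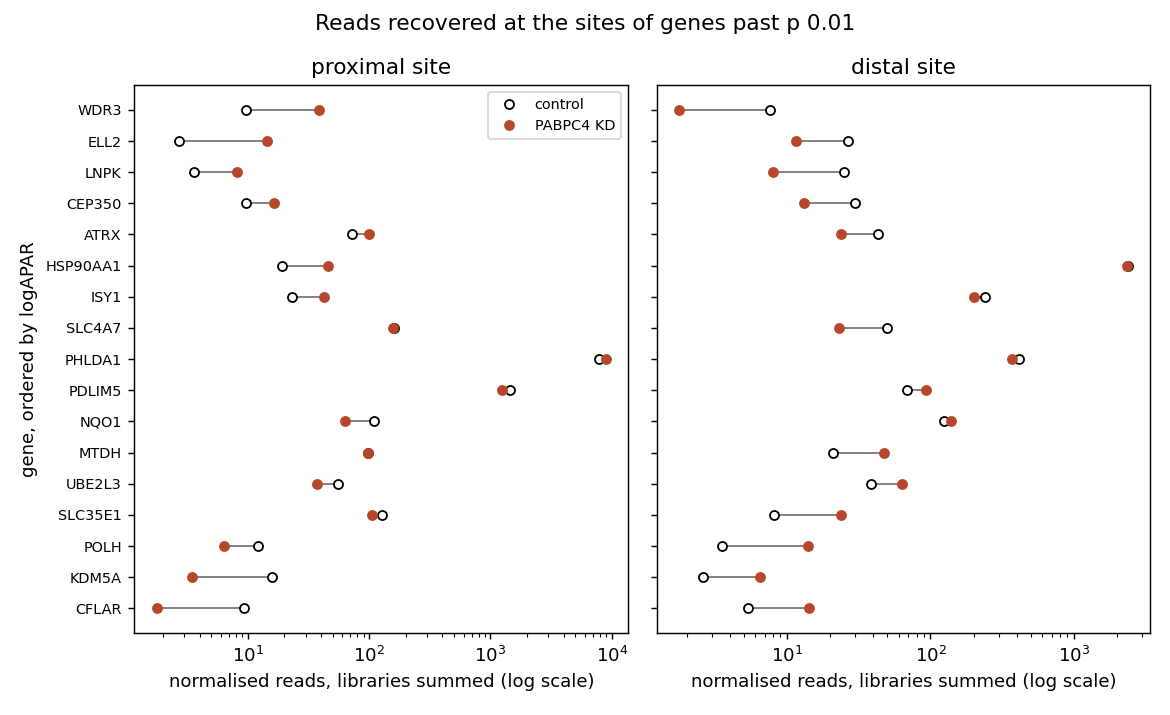
Normalised reads (log scale, libraries of a group summed) at the proximal site (left) and the distal site (right) in control (open) and PABPC4 KD (filled) cells for 17 of the 18 genes past p 0.01 whose reads could be solved. At HSP90AA1 the rise is at a minor proximal site, and at MTDH and SLC4A7 the change lies almost wholly at the distal site.

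Of 37 listed genes that bind, trim or decay poly(A) RNA, 1 (TOB1) passed p 0.01 and 3 passed p 0.05, next to 1.46% and 6.84% of all genes, and the median logAPAR was 0.01, as over all genes. PAIP2, which binds poly(A)-binding proteins and represses translation, had logAPAR −2.20 (95% interval −4.07 to −0.33) and the termination factor GSPT1 −0.48 (−0.93 to −0.03). ZFP36L1, given above, came next in the list, with an interval that spans 0. PABPC1 itself had −0.34 with a standard error of 0.408 and an interval of −1.14 to 0.46, which includes a 2-fold shift toward the distal site. PABPN1, the nuclear poly(A)-binding protein, had 0.17 (−0.07 to 0.41). BTG1, a deadenylation cofactor related to TOB1, had −0.00012 with a standard error of 0.0994. Only 6 of the 37 members were measured well enough for a 2-fold change to reach p 0.01.

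Of 14 genes listed under the cleavage and polyadenylation machinery, 0 passed p 0.01 and 1 passed p 0.05, next to 1.46% and 6.84% of all genes, and their median was −0.14. The list is broader than the core machinery and includes ELAVL1, which binds AU-rich messages. CSTF2T, a subunit of the cleavage stimulation factor, had logAPAR −1.26 (−2.31 to −0.21). CPSF6, a subunit of cleavage factor I, had 1.63 (−0.15 to 3.41), the termination factor PCF11 0.98 (−0.32 to 2.28) and the kinase CDK12 0.70 (−0.61 to 2.004). NUDT21, the other cleavage factor I subunit listed, had −0.14 with a standard error of 0.791.

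Of the other genes that the study singles out, PGK1, a glycolytic kinase, had −0.58 (−1.499 to 0.34) and AGO2, the microRNA effector, 0.25 (−0.45 to 0.94). KAT14 and TXNRD1 had no pair in the table.

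The remaining lists each had between 0 and 3 genes past p 0.01, to be read against 1.46% of all genes. Chromatin genes had 3 of 58 (ATRX toward proximal, SETD5 and KDM5A toward distal), cytosolic ribosomal proteins 2 of 15 (RPL13A and RPL23, in opposite directions), chaperones 2 of 57 (HSP90AA1 and DERL1, in opposite directions) and solute carriers and channels 2 of 72 (SLC4A7 and SLC35E1, in opposite directions). In 7 lists 1 gene passed, among them translation factors (EIF4G1 of 25), mitochondrial import, ribosome and respiration (TIMM50 of 37), splicing factors (SRRM2 of 69), ubiquitin and proteasome (UBE2L3 of 125), cytoskeleton and adhesion (PDLIM5 of 74) and cell cycle and replication (POLH of 60). No gene passed among 24 of mRNA export, 110 zinc finger factors, 75 of vesicle traffic, 114 kinases and phosphatases and 39 long non-coding RNA genes, although between 2 and 6 of each passed p 0.05.

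Translation factors and ribosomal proteins had the highest shares at p 0.05, 5 of 25 and 3 of 15 (both 20%, next to 6.84% of all genes). EEF1G, a subunit of elongation factor 1, had logAPAR −1.62 (−2.93 to −0.30), the tyrosyl-tRNA synthetase YARS1 −0.74 (−1.43 to −0.05) and the initiation factor EIF5 1.29 (0.06 to 2.51), so these genes did not share a direction. RPL23A had 0.28 (0.02 to 0.53). Median errors were lower in both lists (0.690 and 0.633) than over all genes (0.773), which was not separated from the higher shares. No list median lay further from 0 than 0.18, the value for chaperones.

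**Figure D4:**
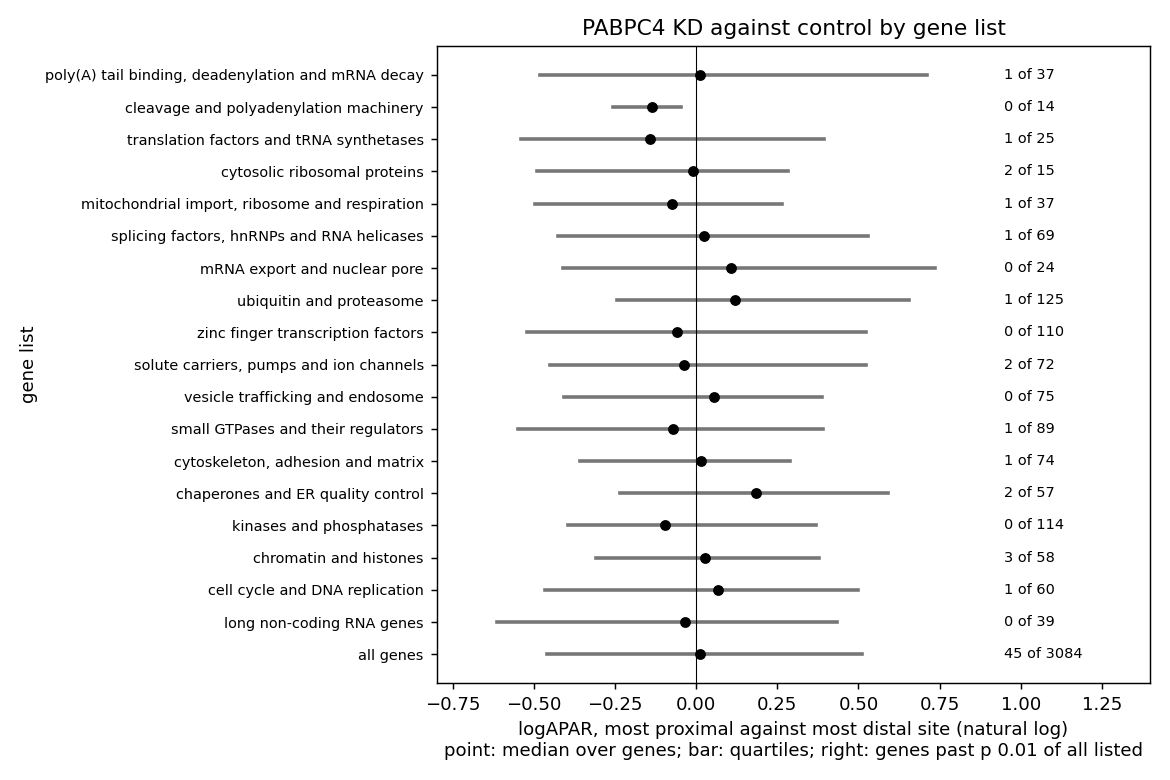
Site shift by gene list in PABPC4 KD against control, with points for the median logAPAR (natural log, outermost pair of sites), bars for the quartiles over genes and, at the right, the genes past p 0.01 of those listed. Every bar but that of the cleavage machinery spans 0, and list medians lie between −0.14 and 0.18.

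By kind of site, pairs with both sites named by annotated transcripts passed p 0.01 most often, 19 of 1270 (1.5%), against 20 of 2826 (0.708%) with a proximal site named by position and a distal transcript end, 5 of 1372 (0.364%) with both sites named by position and 1 of 485 (0.206%) in the reverse order. Median standard errors were 0.713, 0.787, 0.906 and 0.868, lowest for the kind that passed most often. Genes with 2 sites had 22 of 2185 pairs past the threshold (1.01%), genes with 3 sites 9 of 1950 (0.462%) and genes with more 14 of 1818 (0.77%). In 18 passing pairs both ends were annotated, and 11 of these (61.1%) included an end of a transcript not annotated as coding, such as a retained intron at BTN3A2, ISY1, UBXN6 and ZC3H7A or a transcript marked for nonsense-mediated decay at EIF4G1 and SLC35E1. Over all 1223 annotated pairs this share was 55.4%.

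Annotated ends were searched for AATAAA and ATTAAA on the strand of the gene in their last 40 bases. Of the last listed ends of genes 82.8% held one of them, and of the first listed ends 28.3%. Among genes past p 0.01, 31 of 37 distal ends (83.8%) and 4 of 18 proximal ends (22.2%) held one, shares close to those over all ends. The next 20 bases were A-rich (6 A in a row, or 12 of the 20 bases A) after 6 of the 18 proximal ends (33.3%; 26.3% over all first ends) and 3 of the 37 distal ends (8.11%; 3.04% over all last ends). Only bases after an end were scored. The proximal end of BTN3A2 and the distal end of ISY1, each with 19 A in its last 20 bases, were therefore not counted as A-rich.

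PABPC4 was also depleted in cells that were already depleted of HNRNPC, and the difference of the double KD and HNRNPC KD values gives that effect without the control libraries or the PABPC4 KD libraries. This contrast could be formed for 4692 pairs of 2639 genes, with an error that adds the variances of both tables and so is an upper bound. Past p 0.01 were 73 pairs (1.56%), or 60 of the 655 pairs with an error under 0.5 (9.16%). On those same 655 pairs PABPC4 KD against control called 22 (3.36%). Of the 45 genes above, 43 had the value, and 7 passed p 0.01 (16.3%), all in the direction they took in control cells. Restricted to an error under 0.5, 7 of 22 passed (31.8%), to be read against the 9.16%.

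The 7 genes were TSPAN3, PPIAL4G and ISY1 toward the proximal site and PDLIM5, KIAA0319L, BTN3A2 and PLEKHB2 toward the distal site. TSPAN3 had 1.24 with a standard error of 0.14 in HNRNPC-depleted cells (binomial Wald test, adjusted p = 4.3e-15) next to 0.26 in control cells. PDLIM5 had −1.69 with a standard error of 0.268 (binomial Wald test, adjusted p = 6.61e-07) next to −0.45. Adding PABPC4 loss to HNRNPC KD took its proximal site from 1153 to 396 reads and its distal site from 40.9 to 76.0. Against the shared control PDLIM5 had 0.29 in HNRNPC KD and −1.40 in double KD. Part of the −1.69 is thus the value above 0 in HNRNPC KD. For HNRNPC KD the paper reports a switch of PDLIM5 toward the distal site, the opposite sign, and this disagreement was not tested. PPIAL4G had 1.16 (SE 0.249; binomial Wald test, adjusted p = 0.00165) next to 0.43, and KIAA0319L −0.81 (SE 0.184; adjusted p = 0.00513) next to −0.34. BTN3A2 (−1.09, SE 0.359), ISY1 (1.25, SE 0.446) and PLEKHB2 (−0.62, SE 0.205) passed p 0.01 but not the adjustment (binomial Wald test, adjusted p = 0.246, 0.393 and 0.262). These use the upper-bound error. With the error from its solved reads ISY1 had p = 0.000103 (binomial Wald test), for which no adjusted value is given here. Errors were larger in this contrast, so a value had to lie further from 0 than in control cells to pass.

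The remaining genes did not pass there. Over the 43 genes, 24 kept their direction, 15 of 20 distal genes and 9 of 23 proximal genes, and the median was −0.41 among the distal genes (−0.89 in control cells) and −0.17 among the proximal genes (1.36 in control cells). Both medians lay below 0 in this contrast, and its lean over all shared pairs was not computed. Whether distal calls held better than proximal calls therefore cannot be read from these counts. Of the 17 genes whose error in control cells was 0.5 or more, 7 kept their direction and 0 passed. TIMM50, past every threshold in control cells, had 0.48 with a standard error of 0.315 (binomial Wald test, p = 0.131), and against the shared control HNRNPC KD gave 0.48 and double KD 0.96. SRRM2 had 0.05 (SE 0.139), NQO1 −0.17 (SE 0.258) and SETD5 0.19 (SE 0.145).

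**Figure D5:**
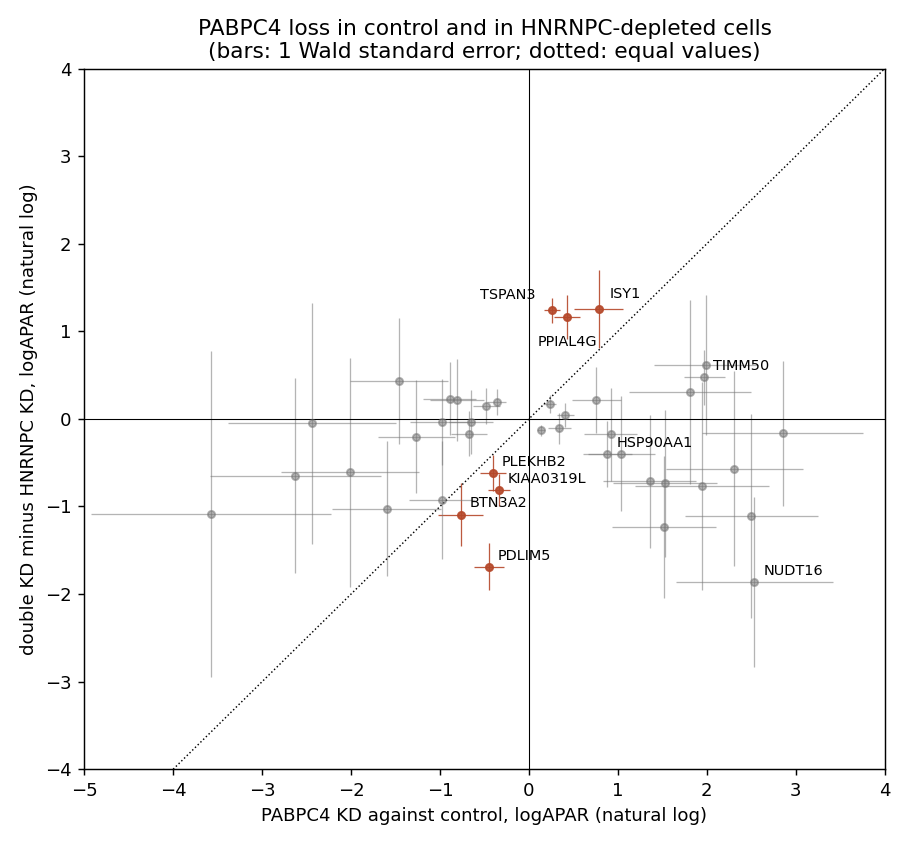
Effect of PABPC4 loss on logAPAR (natural log) in control cells (horizontal axis, PABPC4 KD against control) and in HNRNPC-depleted cells (vertical axis, double KD minus HNRNPC KD) for 41 of the 43 genes with both values, with bars of 1 Wald standard error. The 7 red genes passed p 0.01 in HNRNPC-depleted cells and lie on the same side of 0 in both, while the interval of TIMM50 on the vertical axis (−0.14 to 1.09) contains 0.

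The difference between the backgrounds was tested for the same 4692 pairs, of which 49 passed p 0.01 (1.04%) and 3 an adjusted p of 0.05. Of the 43 genes, 10 passed p 0.01 for this difference, which contains the control-cell value they were chosen by. Among them, TSPAN3 passed the adjustment (difference 0.98, SE 0.166; binomial Wald test, adjusted p = 1.4e-05). PDLIM5 (−1.24; binomial Wald test, adjusted p = 0.0746) and TIMM50 (−1.496; adjusted p = 0.109) did not. With errors taken from the solved reads in place of the upper bound, PDLIM5 (binomial Wald test, adjusted p = 0.00312) and HSP90AA1 (difference −1.28; adjusted p = 0.0469, against 0.717 with the upper bound) also passed.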

How the data were processed

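RNA 3′ ends of MDA-MB-231 CRISPRi cells were sequenced with QuantSeq REV in duplicate. The authors quantified distinct Gencode release 33 transcript ends with Salmon 0.14.1, and the submitters' processing notes also name UMI-tools and hg38. Whether reads were collapsed to molecules before counting is not given in the sources used here, and if they were not, PCR copies enter the reads and the p-values and intervals are too narrow. The authors fitted the site pairs of each gene with APAlog, a multinomial logistic regression. The deposited table gives a log fold change of the site ratio on the natural log scale, a p-value and a corrected q-value per pair, all of them outputs of the authors' comparison. These columns were used because the table holds nothing else: 0 values per library are given, so depth per library is not given in the sources used here and no model was refitted. The corrected values equalled Benjamini-Hochberg values of the deposited p-values.

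Wald standard errors were recovered from each value and its p-value (2 pairs gave none). The variance of a pair is the sum of the inverse reads of 4 cells, so the lowest cell lies between 1 and 4 times the inverse variance. At genes with 3 or more sites shared by the 3 tables the variances were solved for normalised reads, at 670 of 681 genes, keeping solutions whose control reads departed from their mean over the tables by at most 0.01 on the natural log scale (median 7.84e-05) and whose read scale had an error of at most 0.05. The median site had 12.1 reads in control and 12.3 in PABPC4 KD. Both steps were tested on simulated data.

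One pair per gene, of smallest p, entered counts of genes. Up to 12 genes of smallest p in each direction are given with values and the rest by name, except a few genes and sequences that are not reported here. Gene lists were built from symbols, and name matches of other families were removed. The genes, lists and tests were chosen with earlier results of these data known, and the errors under 0.5 used to split the second contrast were a planned filter applied there after seeing the data. Of 4000 sites named by a transcript, 3529 matched Gencode release 44 with the same version. Of 3387 sites named by position in annotated genes, 412 lay inside their gene on hg38, so they use another build and were not converted. Python 3.11.15, numpy 2.4.6, scipy 1.17.1, pandas 2.3.3, pysam 0.24.0 and matplotlib 3.10.9 were used.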

Additional observations from a re-analysis of the deposited data

Results flagged for a closer look

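TSPAN3 was singled out because the effect of PABPC4 loss on its sites differed between the backgrounds. Its logAPAR was 0.26 in control cells and 1.24 in HNRNPC-depleted cells, a difference of 0.98 toward the proximal site (SE 0.166; Benjamini-Hochberg adjusted p = 1.4e-05 by the binomial Wald test over 4692 pairs, counting error only). Against the shared control it had 0.10 in HNRNPC KD and 1.34 in double KD. The distal site of TSPAN3 is an annotated coding transcript end and the proximal site is named by position, so sequence was not read there.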

How the results depend on the processing

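No paired analysis was possible because the table holds no values per library, and leaving out a replicate could not be run for the same reason. Counts of pairs and of genes past p 0.01 (45 each) became 7 and 7 at p 0.001, 240 and 211 at p 0.05, 1 and 1 at an adjusted p of 0.05, and 26 and 26 with standard errors under 0.5. With both ends required to match annotated transcripts, chosen after seeing the data, 18 genes passed. The share of passing genes shifted to the distal site was 44.4%, with 30.9% to 58.8% as its 95% interval by Wilson's method. That interval treats the genes as independent draws and does not cover spread between replicates. The share was 28.6% at p 0.001 and 0% at an adjusted p of 0.05, where 1 gene passed. It stayed within the interval under the other settings, which share genes with the main count, so the interval serves only as a yardstick. PABPC4 loss in HNRNPC-depleted cells passed p 0.01 at 73 pairs, at 134 with errors from solved reads where they exist, and at 22 with an adjusted p of 0.05; the difference between backgrounds passed at 49, 85 and 3. The other 18 alternative values moved by at most 1.5 times or stayed within the interval of the share or the median, among them the count of lists with a passing gene (12, with 9 for the outermost pair of sites and 18 at p 0.05). Of 166 alternative values for the 24 genes of smallest p by direction, 40 lost the threshold, all at p 0.001 or an adjusted p of 0.05. Each setting kept or dropped the same deposited pair, so no value could reverse. A gene whose pair a setting dropped is not counted among the 166 there. Such cases include CFLAR with the outermost pair of sites and WIPF1 with standard errors under 0.5. Depth is a further limit: the upper quartile of the standard errors was 1.10.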

Other observations

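Reads summed over the sites of a gene are given for the 670 solved genes, as values without replicates or a test. The median ratio of PABPC4 KD to control was 1.01. Among genes that act on poly(A) RNA, AGO2 had 138 reads in control and 124 in PABPC4 KD, GSPT1 205 and 202, and ELAVL1, which binds AU-rich messages, 155 and 161. Of the genes past p 0.01 for their sites, WDR3 had the largest ratio, from 26.8 to 50.8 reads, while KDM5A went from 152 to 115, LNPK from 532 to 444, MTDH from 127 to 156 and HSP90AA1 from 2440 to 2443.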
